A study of Mus musculus with 9 samples.

Results

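The genes described here encode enzymes that make or remove cyclic AMP (cAMP): the adenylyl cyclases Adcy1, Adcy2, Adcy3, Adcy5, Adcy8 and Adcy9, and the phosphodiesterases Pde4a, Pde4b, Pde4d and Pde10a. They were found by gene symbol in the deposited transcript tables, where they are 10 of 47593 symbols and hold 66 of 115220 transcripts. The material was ribosome-bound RNA from medial prefrontal cortex (mPFC) neurons of adult C57BL/6 mice. RiboTag immunoprecipitation was used, which captures tagged ribosomes and whatever RNA they hold, and the RNA was sequenced with a stranded total RNA kit. There were 9 libraries in 3 groups of 3: sleep with GFP overexpressed in the mPFC as control, enforced wake with the same GFP control, and enforced wake with GFP-Fxr1 overexpressed. All 9 libraries share the strain, the stage, the tagging method and an overexpressed GFP protein, alone or fused to Fxr1, a relative of the fragile X protein that binds RNA. The driver of the tag, the vector, the length of enforced wake and the pooling of animals are not given in the sources used here.

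Adenylyl cyclases turn ATP into cAMP at the plasma membrane, mostly when a receptor activates the stimulatory G protein alpha subunit, and phosphodiesterases end the signal by hydrolysing cAMP. cAMP then acts through protein kinase A, the exchange factors Rapgef3 and Rapgef4, and cyclic nucleotide-gated channels, and protein kinase A phosphorylates the transcription factor CREB. The cyclases differ in how they are controlled. Adcy1 and Adcy8 are stimulated by calcium and calmodulin and link synaptic activity to cAMP, Adcy5 is inhibited by calcium and by inhibitory G proteins, and Adcy3 is best known from primary cilia and olfactory neurons. In the hippocampus, sleep loss has been reported to lower cAMP signalling through higher activity of PDE4 enzymes, the family of Pde4a, Pde4b and Pde4d.

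Enforced wake was accompanied by more ribosome-associated RNA of Adcy3, Adcy9 and Pde4a and less of Pde4b than sleep. With Fxr1 overexpressed, none of the 10 genes passed the test against enforced wake, and none passed against sleep. Without Fxr1 library 1, Adcy3, Adcy5 and Pde4a passed as lower and Pde4b as higher than in enforced wake, beside 22.8% of all genes. Adcy5 and Pde4a also passed as lower with all 9 libraries in the fit, beside 23% of all genes. The differences of enforced wake from sleep tended to rise with the GC content of the genes. Those of Fxr1 from enforced wake tended to fall with it, and both trends were also seen across all genes. The 4 wake calls of genes did not pass once the trend with GC content and length was removed. Adcy5 then passed as lower in enforced wake than in sleep. With Fxr1 against sleep, Adcy5 then passed as lower and Adcy9 as higher. Tested as a transcript, the main transcript of Adcy9 passed in enforced wake with and without removal of that trend. This transcript call was lost when any 1 library was left out and with all 9 libraries in the fit. Levels are given as FPKM, a count of fragments divided by transcript length and by the mapped fragments of the library, as estimated by the authors and summed over the transcripts of a gene.

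The libraries were read at an estimated 2.99e+07 to 3.73e+07 fragments. Fxr1 itself stood at 31.7, 34.8 and 31.0 FPKM in sleep, 34.8, 33.9 and 31.1 FPKM in enforced wake, and 91.1, 67.7 and 71.8 FPKM in the libraries labelled with Fxr1, so these 3 carried more Fxr1 RNA than the other 6. Fxr1 library 1 stood apart from the rest. On the first principal component of all genes, which held 54.6% of the variance, it lay at 64.1, and the other 8 libraries lay between -31.2 and 13.3. It was also the lowest of the 9 libraries for Adcy1, Adcy2, Adcy3, Adcy5, Adcy9 and Pde4a, so the Fxr1 differences that it moved are also given without it. Neuronal markers were abundant: 5 neuronal genes summed to 3501 to 3666 FPKM in sleep, 3145 to 3364 FPKM in enforced wake and 3435 to 3717 FPKM with Fxr1. The labels do not say whether the 3 libraries of a group came from separate animals, and p-values then measure the spread between these libraries only, which may be technical.

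Differences were tested as log2(FPKM + 1) with limma over all genes with a mean of at least 0.5 FPKM, two-sided, and a gene passed at a Benjamini-Hochberg adjusted p under 0.05. All 10 genes were above that minimum in each comparison. A difference below is on that log2 scale. The groups are bulk libraries, so fewer cells of a type and less RNA per cell cannot be told apart.

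Over the 9 libraries the genes spanned a range from Adcy1, with a mean level of 80.8 FPKM, to Adcy8, with 4.93 FPKM. Pde4b followed Adcy1 with a mean of 48.2 FPKM and Adcy2 stood next with 45.8 FPKM. These neighbours changed places between libraries: Pde4b was above Adcy2 in 6 of 9. Pde4d, with 28.9 FPKM, and Adcy9, with 20.2 FPKM, lay below, and the values of Adcy2, Pde4d and Adcy9 did not overlap over the 9 libraries. Further down, Pde4a (14.1 FPKM), Adcy3 (10.7 FPKM), Pde10a (9.55 FPKM) and Adcy5 (8.84 FPKM) overlapped each with the next, as did Adcy9 with Pde4a and Adcy5 with Adcy8. All 10 are protein-coding genes on different parts of the genome. On GRCm38, Adcy1 lies on chr11 (7063489 to 7178506), Adcy2 on chr13 (68620043 to 68999541), Adcy5 on chr16 (35154877 to 35305738), Adcy8 on chr15 (64697084 to 64922296), Pde4d on chr13 (108449948 to 109953461) and Pde10a on chr17 (8525372 to 8986648). Adcy5 and Pde10a are best known from striatal projection neurons. The striatal receptor genes Drd2 and Adora2a stood at 0.0426 to 0.516 FPKM and 0.0900 to 0.588 FPKM, and Drd1, which cortical neurons also express, at 4.42 to 7.14 FPKM.

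**Figure D1:**
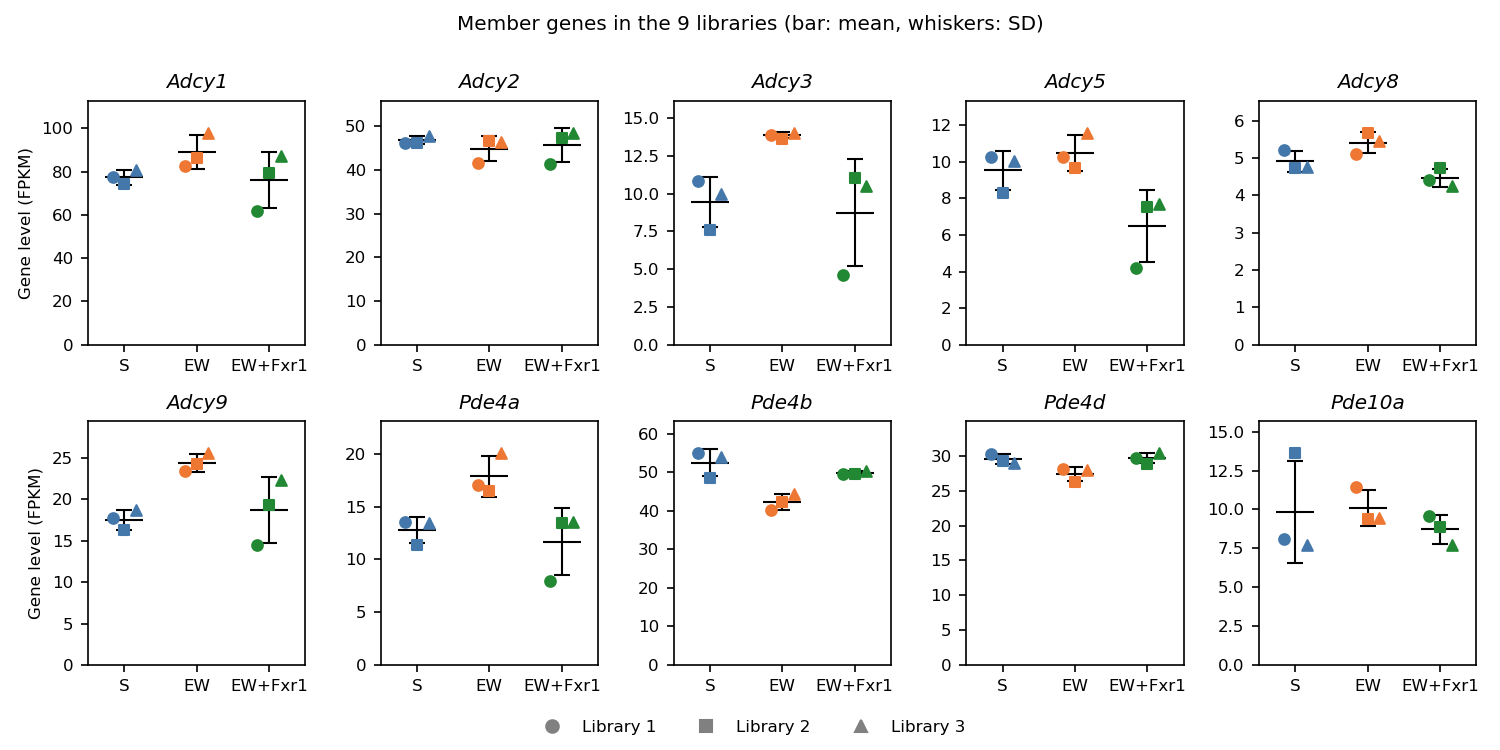
Gene level (FPKM, summed over transcripts, linear axis from 0) of the 10 genes in the 9 libraries, by group (S, sleep; EW, enforced wake; EW+Fxr1, enforced wake with Fxr1); horizontal bars are means and whiskers SD over 3 libraries. Adcy3, Adcy9 and Pde4a have their 3 enforced wake values above all other libraries of the same panel, and Pde4b has its 3 lowest values there.

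The genes that moved in enforced wake are shown by the DNA just upstream of a RefSeq start, since Adcy3, Adcy9 and Pde4a differ from Pde4b in base composition, both in their transcripts and here. RefSeq start sites on GRCm38.p6 were found for 9 of the 10 genes, with 16 promoters. Each line gives bases -139 to -20 relative to the start on the strand of the gene, with CREB half-sites (TGACG, or CGTCA on the other strand) in capitals.
Pde4b, chr4:102421416-102421535, plus strand: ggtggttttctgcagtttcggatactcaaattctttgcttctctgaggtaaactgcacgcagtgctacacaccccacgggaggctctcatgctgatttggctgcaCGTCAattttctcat
Pde4a, chr9:21165575-21165694, plus strand: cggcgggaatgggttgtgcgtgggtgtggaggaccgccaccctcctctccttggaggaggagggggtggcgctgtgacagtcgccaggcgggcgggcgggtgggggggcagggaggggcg
Adcy9, chr16:4420518-4420637, minus strand: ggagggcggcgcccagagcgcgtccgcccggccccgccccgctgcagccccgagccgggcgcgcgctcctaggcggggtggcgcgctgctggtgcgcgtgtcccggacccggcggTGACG
Adcy3, chr12:4134014-4134133, plus strand: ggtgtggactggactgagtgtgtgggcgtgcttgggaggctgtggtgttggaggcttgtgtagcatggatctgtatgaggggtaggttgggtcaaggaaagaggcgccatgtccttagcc
The Pde4b line is not wholly upstream of the gene's transcripts. Pde4b-205 is annotated to start 37 bases before the RefSeq start, so the last 18 bases shown, with the half-site at -34, lie in the untranslated part of its first exon. The Pde4a start is that of its most abundant transcript, Pde4a-202, and the Adcy3 start that of Adcy3-201. The Adcy9 start is that of Adcy9-203, a transcript at only 0.399 FPKM, while Adcy9-201, which holds nearly all Adcy9 signal, starts elsewhere. Over the 250 bases before the start shown, GC content was 46.0% at Pde4b, 56.0% at Adcy3, 68.8% at Pde4a and 78.8% at Adcy9, and the median of 32851 promoters was 52.4%. Other RefSeq starts of these genes had 68.8% (Adcy3), 61.2% and 53.6% (Pde4a) and 43.2%, 46.8% and 50.8% (Pde4b). The half-site, searched on both strands over those 250 bases, was found in 3 of the 16 promoters: the Pde4b and Adcy9 ones shown, and one of a minor Pde4a transcript that is not shown. It was present in 17.8% of all promoters. The full site TGACGTCA, which contains the half-site, was found in 0 of the 16 and in 1.55% of all promoters.

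Sleep and enforced wake, both with GFP, were compared to ask how enforced wake goes with the ribosome-associated RNA of the neurons. Among the cyclases, Adcy9 differed most clearly. Adcy9, a widely expressed membrane cyclase on chr16 (4287529 to 4420498, minus strand), stood at 17.7, 16.3 and 18.7 FPKM in sleep and at 23.5, 24.2 and 25.6 FPKM in enforced wake. The groups did not overlap. The means were 17.6 ± 1.21 and 24.4 ± 1.08 FPKM (SD, n = 3 each), 1.39-fold, and the difference was 0.46 (SE 0.070, limma adjusted p = 0.00744). Adcy9 passed whichever library was left out, but with all 9 libraries in the fit its adjusted p was 0.0765.

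Adcy3, on chr12 (4133103 to 4213525, plus strand), stood at 10.8, 7.58 and 9.96 FPKM in sleep and at 13.9, 13.6 and 14.0 FPKM in enforced wake. All 3 wake values lay above all sleep values, and they were closer to each other than the sleep values were. The mean rose from 9.45 ± 1.67 to 13.8 ± 0.196 FPKM (SD, n = 3 each), 1.47-fold, with a difference of 0.52 (SE 0.12, limma adjusted p = 0.0223). Without enforced wake library 1, 2 or 3 the adjusted p was 0.0618, 0.0642 or 0.0724, so the call was lost. The difference hardly moved, at 0.518, 0.530 and 0.511, and all genes called fell from 4156 to 2570, 1822 and 1866. The Adcy3 call was also lost without the filter on low values, with 0.0517, and with all 9 libraries in the fit, with 0.236.

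The calcium-stimulated cyclase Adcy1, the most abundant of the genes, had 77.3, 74.1 and 80.9 FPKM in sleep and 82.8, 86.3 and 97.95 FPKM in enforced wake. Its groups did not overlap either, but the difference of 0.20 (SE 0.077) had an adjusted p of 0.0980 and did not pass. Adcy8, the other calcium-stimulated cyclase, ranged from 4.74 to 5.23 FPKM in sleep and from 5.11 to 5.68 FPKM in enforced wake, a difference of 0.12 (SE 0.071, adjusted p = 0.250). Adcy2, a cyclase that G protein beta-gamma subunits stimulate, ranged from 46.3 to 47.8 FPKM and from 41.7 to 46.7 FPKM, a difference of -0.059 (SE 0.062, adjusted p = 0.50). Adcy5 had 10.3, 8.29 and 10.1 FPKM in sleep and 10.2, 9.64 and 11.6 FPKM in enforced wake, a difference of 0.13 (SE 0.10, adjusted p = 0.381). The sleep and wake values of Adcy2, Adcy5 and Adcy8 overlapped.

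Among the phosphodiesterases, 2 genes of the same PDE4 family moved in opposite directions. Pde4a, on chr9 (21165714 to 21213248, plus strand), stood at 13.5, 11.4 and 13.4 FPKM in sleep and at 17.0, 16.5 and 20.1 FPKM in enforced wake. Its mean rose from 12.8 ± 1.20 to 17.9 ± 1.93 FPKM (SD, n = 3 each), 1.40-fold, with a difference of 0.45 (SE 0.10, limma adjusted p = 0.0198). The groups did not overlap, and the highest value was that of enforced wake library 3. Without that library the adjusted p was 0.0562, and with all 9 libraries in the fit it was 0.152.

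Pde4b, on chr4 (102087543 to 102607259, plus strand), stood at 55.0, 48.5 and 54.1 FPKM in sleep and at 40.2, 42.4 and 44.4 FPKM in enforced wake. All wake values lay below all sleep values. The mean fell from 52.5 ± 3.55 to 42.3 ± 2.14 FPKM (SD, n = 3 each), with a difference of -0.30 (SE 0.070, limma adjusted p = 0.0229). The call was lost without sleep library 1 or 3 (adjusted p = 0.0556 and 0.0685) and without enforced wake library 1 or 2 (0.0681 and 0.0719). With all 9 libraries in the fit, Pde4b was the 1 gene of the 10 that still passed, beside 9.56% of all genes.

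Pde4d had 30.3, 29.3 and 29.0 FPKM in sleep and 28.1, 26.2 and 27.9 FPKM in enforced wake. These values did not overlap, but the difference of -0.10 (SE 0.055) did not pass (adjusted p = 0.196). Pde10a, which hydrolyses both cAMP and cyclic GMP, had 8.13, 13.6 and 7.74 FPKM in sleep and 11.4, 9.40 and 9.45 FPKM in enforced wake, with sleep library 2 the highest of all. Its difference of 0.070 (SE 0.20, adjusted p = 0.811) turned negative without sleep library 1 or 3 or enforced wake library 1, with values of -0.033, -0.064 and -0.014.

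In all, 3 of the 10 genes rose and 1 fell, which is 40.0% of them; of all 14673 genes tested 28.3% passed, 15.7% higher and 12.7% lower. At an unadjusted p under 0.05 there were 5 of the 10 genes, the 4 named and Adcy1, and 42.6% of all genes. The groups did not overlap for 6 of the 10 genes and for 49.5% of all genes. The median difference of the 10 genes was 0.12 and that of all genes 0.004. After the trend with GC content and length was removed from each library, 1 of the 10 passed and 22.3% of all genes. That gene was Adcy5, which turned lower in enforced wake (-0.32, SE 0.053, adjusted p = 0.0107). The corrected differences of the 4 genes above were smaller in size: 0.20 for Adcy3 (adjusted p = 0.0966), 0.13 for Adcy9 (0.104), 0.13 for Pde4a (0.155) and -0.22 for Pde4b (0.0852). The correction also takes away any change of the cells that follows GC content, so both values are given.

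**Figure D2:**
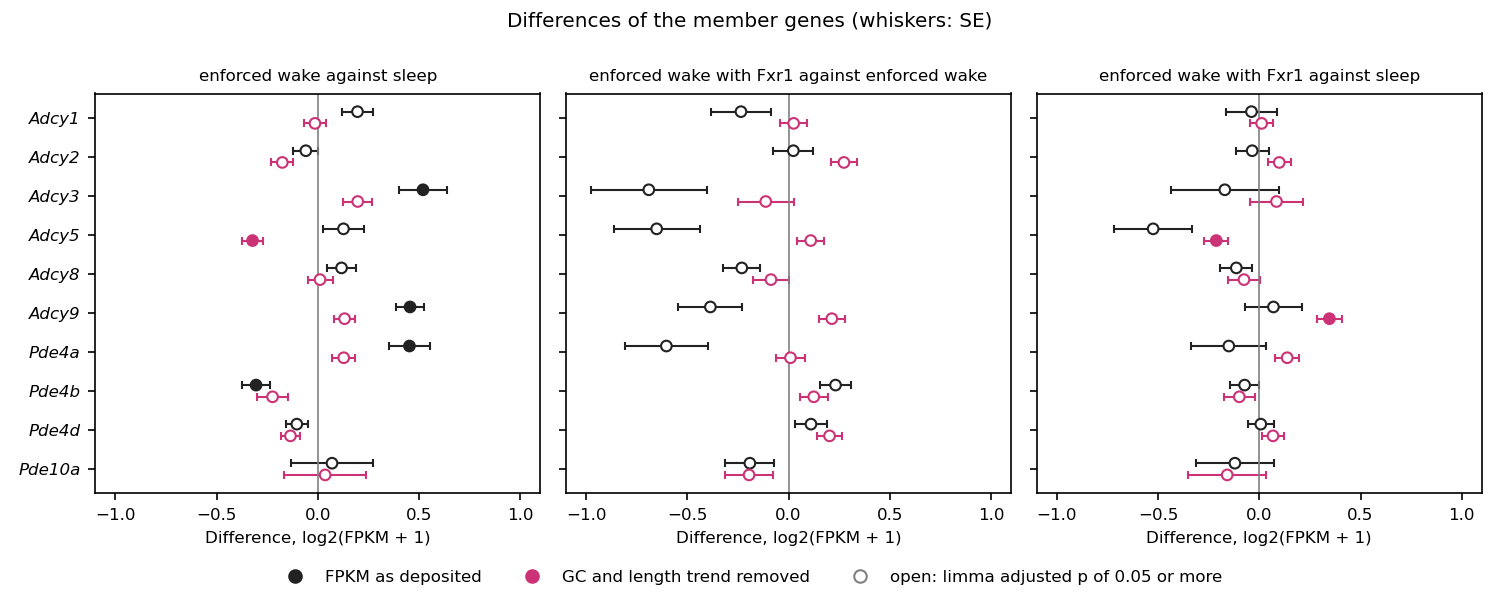
Difference of each gene on the log2(FPKM + 1) scale (points, with SE whiskers) in the 3 comparisons, from FPKM as deposited (black) and after removal of the trend with GC content and length (magenta); filled points have a limma adjusted p under 0.05. In enforced wake against sleep, 4 black points are filled and only Adcy5 is filled in magenta, and in enforced wake with Fxr1 against enforced wake no point is filled.

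GC content was set against the differences. The longest annotated transcripts of Adcy5 (59.5%), Pde4a (57.2%), Adcy9 (57.0%) and Adcy3 (56.7%) had the most GC and that of Pde4b (45.9%) the least, with Adcy1 (52.6%), Adcy2 (52.2%), Adcy8 (50.8%), Pde4d (49.8%) and Pde10a (48.3%) between. The correction of gene levels used these longest transcripts too, and for Adcy9 that is not the main one: Adcy9-201 had 54.2% GC. Weighted by transcript level, GC content was 54.3% for Adcy9, 55.5% for Adcy3, 57.0% for Pde4a and 48.1% for Pde4b. Gene values corrected with the weighted GC content were not computed. Across the 10 genes, Spearman's rho of GC content and difference was 0.770 for enforced wake against sleep and -0.867 for Fxr1 against enforced wake, but -0.345 for Fxr1 against sleep. Across all genes it was 0.557, -0.817 and -0.539. These are descriptions across genes that share the same libraries, with no p. GC also set the enforced wake libraries apart: rho of a library's deviation from the mean of all libraries with GC content, over 12996 genes, was 0.641 to 0.715 in enforced wake, -0.380 to 0.253 in sleep and -0.795 to -0.248 with Fxr1, lowest in Fxr1 library 1. Sleep and Fxr1 libraries overlapped, with sleep library 2 at -0.380. The part of base composition in the differences beyond the corrected values was not tested.

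**Figure D3:**
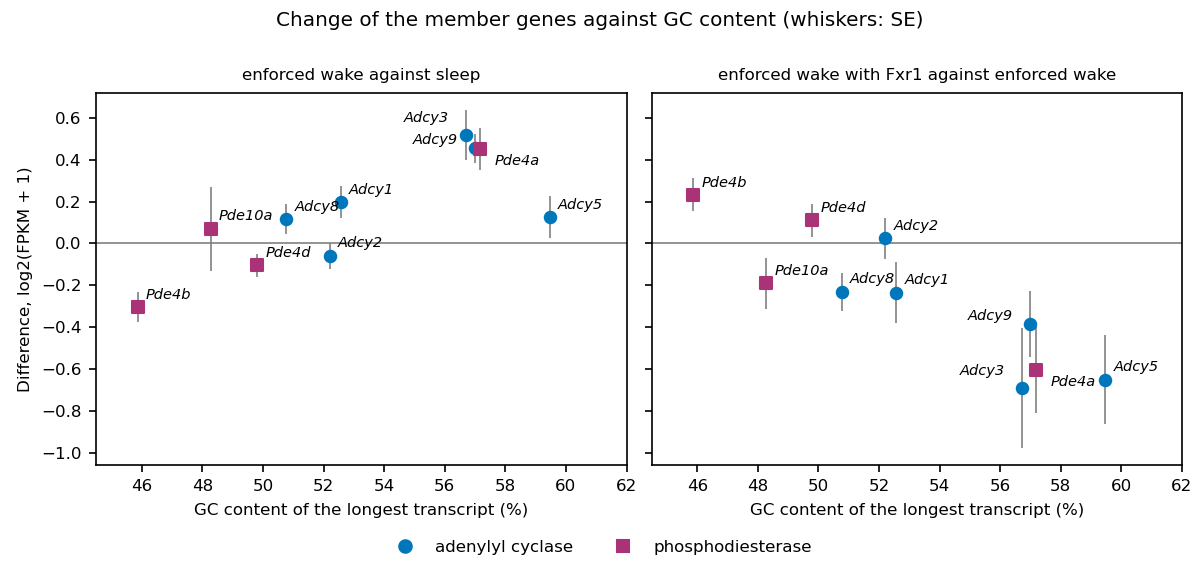
Difference of the 10 genes (log2(FPKM + 1), SE whiskers) against the GC content of the longest annotated transcript (%), for enforced wake against sleep and for enforced wake with Fxr1 against enforced wake; circles are cyclases and squares phosphodiesterases. Pde4b at 45.9% GC and the group at 56.7 to 57.2% GC (Adcy3, Adcy9, Pde4a) lie on opposite sides of 0, and the sides change between the panels.

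Adcy1, Adcy2, Adcy5 and Adcy8 were each measured almost wholly as 1 transcript, whereas the signal of Adcy3 and the phosphodiesterases was divided. Of 31 transcripts tested in enforced wake against sleep, 1 passed: Adcy9-201, which holds 97.0% of the Adcy9 signal. It had 17.0, 15.4 and 17.9 FPKM in sleep and 23.4, 23.7 and 25.1 FPKM in enforced wake, a difference of 0.50 (SE 0.073, adjusted p = 0.0365). Of all 29116 transcripts 3.62% passed. The transcript call was lost when any 1 library was left out, with adjusted p from 0.0528 to 0.122. With the GC and length trend removed, Adcy9-201 still passed as higher, again as the 1 transcript of these genes that did.

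Pde4a-202, which starts at the promoter shown and holds 77.8% of the Pde4a signal, had 10.6, 8.34 and 9.26 FPKM in sleep and 14.0, 13.4 and 16.7 FPKM in enforced wake. Its difference of 0.60 (SE 0.12) did not pass (adjusted p = 0.0678), though the groups did not overlap. The shorter Pde4a-201 ranged from 2.44 to 3.22 FPKM in sleep and from 2.98 to 3.12 FPKM in enforced wake, a difference of 0.056 (SE 0.11, adjusted p = 0.805).

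The Pde4b signal was split over several transcripts, and the split varied within groups. Pde4b-205, whose first exon holds the half-site shown, had a mean share of 34.5% and Pde4b-207 one of 33.8%, and Pde4b-207 held the larger share in 5 of the 9 libraries. Pde4b-205 had 28.6, 14.1 and 27.1 FPKM in sleep and 5.02, 6.44 and 22.05 FPKM in enforced wake, so enforced wake library 3 lay among the sleep values. Pde4b-207 had 13.3, 19.6 and 13.8 FPKM in sleep and 18.2, 17.3 and 10.6 FPKM in enforced wake. The Pde4b-205 difference of -1.20 (SE 0.59) had an adjusted p of 0.297, and that of Pde4b-207, -0.036 (SE 0.25), had 0.950. The gene sum, with SDs of 3.55 and 2.14 FPKM, varied less than its transcripts.

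Pde4d was steadier: Pde4d-207, 50.4% of its signal, ranged from 14.7 to 14.97 FPKM in sleep, from 12.99 to 13.8 FPKM in enforced wake and from 15.28 to 15.29 FPKM with Fxr1.

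Estimates also switched between transcripts of Adcy3 and Pde10a. Adcy3-201, 62.1% of the Adcy3 signal on average, was listed at 0 in sleep library 2 and in Fxr1 library 1, and without sleep library 2 its difference in enforced wake went from 1.09 to -0.020. In sleep library 2, Adcy3-202 held 60.5% and Adcy3-207 30.7% of the signal, and in Fxr1 library 1 they held 11.5% and 59.6%. Enforced wake library 1 and Fxr1 library 3 also had Adcy3-207 at 31.8% and 26.3% and Adcy3-202 at 21.1% and 19.0%, with Adcy3-201 present. Pde10a-202 held 69.6 to 83.0% of Pde10a in sleep, but 6.26%, 4.44% and 74.5% in enforced wake libraries 1, 2 and 3. In enforced wake libraries 1 and 2, Pde10a-205, which is annotated as a target of nonsense-mediated decay, held 56.0% and 68.3%. Transcripts of a gene share exons, so a share shows how the authors' estimate divided the reads, and whether it was the RNA that differed was not tested. In the authors' deposited table, 0 of 65 transcripts of these genes had a q-value under 0.05 in either comparison; the lowest q-value was 0.445 for sleep and enforced wake and 0.302 for Fxr1.

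**Figure D4:**
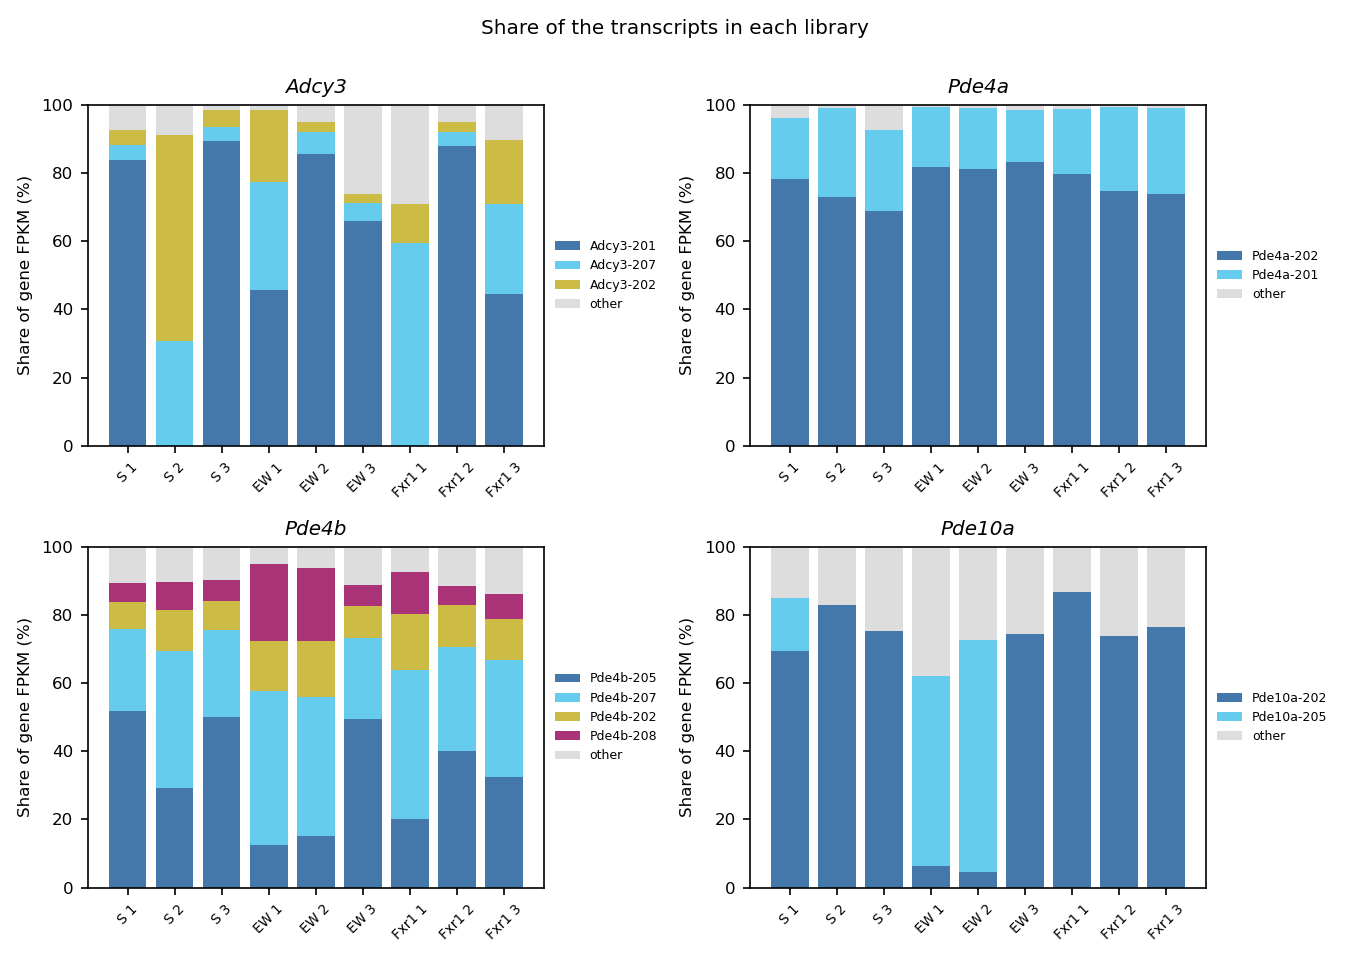
Share of the gene's FPKM (%) held by each transcript in the 9 libraries for Adcy3, Pde4a, Pde4b and Pde10a; coloured segments are transcripts with at least 10% of the gene over all libraries and grey is the rest. Pde4a-202 keeps the largest share of Pde4a in all 9 libraries, while Pde10a-202 drops to 6.26% and 4.44% in enforced wake libraries 1 and 2.

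Enforced wake with GFP-Fxr1 was compared with enforced wake with GFP to ask what goes with Fxr1 overexpression. None of the 10 genes passed in limma at the adjusted threshold, and 0.412% of all 14563 genes did. At an unadjusted p under 0.05 there were 6 of the 10 genes and 38.3% of all genes, and the groups did not overlap for 7 of the 10 and for 52.5% of all genes. This comparison and that of enforced wake with sleep use the same 3 enforced wake libraries, so opposite signs between them are not independent.

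Among the cyclases, Adcy3 had 4.64, 11.03 and 10.5 FPKM with Fxr1 against 13.9, 13.6 and 14.0 FPKM in enforced wake. Its difference of -0.69 (SE 0.29) had an adjusted p of 0.130, and Fxr1 library 1 was well below the other 2. Adcy5 had 4.22, 7.56 and 7.71 FPKM with Fxr1 against 9.64 to 11.6 FPKM in enforced wake, a difference of -0.65 (SE 0.21, adjusted p = 0.0954). Adcy9 had 14.5, 19.3 and 22.4 FPKM with Fxr1 against 23.5 to 25.6 FPKM, a difference of -0.39 (SE 0.16, adjusted p = 0.126). All Fxr1 values of Adcy3, Adcy5 and Adcy9 lay below all enforced wake values. Adcy8, with 4.41, 4.74 and 4.25 FPKM, also lay below its enforced wake values, with a difference of -0.23 (SE 0.092, adjusted p = 0.121). Adcy1 had 61.8, 79.2 and 87.2 FPKM with Fxr1, a spread that covered part of the wake values (-0.24, SE 0.15, adjusted p = 0.260). Adcy2, with 41.4, 47.3 and 48.5 FPKM, differed by 0.024 (SE 0.098, adjusted p = 0.868).

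Pde4a had 8.003, 13.5 and 13.6 FPKM with Fxr1, all below the 16.5 to 20.1 FPKM of enforced wake, a difference of -0.60 (SE 0.21, adjusted p = 0.0983). Pde4b had 49.5, 49.7 and 50.4 FPKM, all above the 40.2 to 44.4 FPKM of enforced wake, a difference of 0.23 (SE 0.079, adjusted p = 0.0975). The Pde4b values with Fxr1 were close to each other (SD 0.451 FPKM), and Fxr1 library 1 did not stand apart there. Pde4d had 29.7, 28.9 and 30.4 FPKM, above its wake values (0.11, SE 0.078, adjusted p = 0.311), and Pde10a had 9.60, 8.85 and 7.71 FPKM (-0.19, SE 0.12, adjusted p = 0.268).

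These results depended on Fxr1 library 1. Without it, 4 of the 10 genes passed, and 22.8% of all 14554 genes: Adcy3 (-0.34, adjusted p = 0.0167), Adcy5 (-0.41, 0.0289) and Pde4a (-0.37, 0.0429) were lower and Pde4b (0.24, 0.0448) was higher. The differences of Adcy3, Adcy5 and Pde4a were smaller in size without it, as were those of Adcy1 (-0.094, adjusted p = 0.476) and Adcy9 (-0.22, 0.105), which did not pass. Adcy2 differed by 0.092 (0.361) and Pde10a by -0.26 (0.146) without it, and Adcy8 (-0.22, 0.101) and Pde4d (0.11, 0.233) hardly moved. With all 9 libraries in the fit, Adcy5 (adjusted p = 0.0456) and Pde4a (0.0486) passed as lower, beside 23% of all genes. After the GC and length trend was removed, 0 of 10 passed (0.296% of all genes), and the signs of Adcy1 (0.025), Adcy5 (0.11), Adcy9 (0.21) and Pde4a (0.0097) turned. Adcy9-201 had 12.9, 18.9 and 22.3 FPKM with Fxr1, Pde4a-202 had 6.39, 10.1 and 10.1 FPKM, and Pde4b-205 had 10.02, 19.96 and 16.4 FPKM, so the first 2 stayed below their wake values and Pde4b-205 lay among them. Of the 31 transcripts tested, 0 passed in limma, with 3 at an unadjusted p under 0.05 (19.7% of all transcripts), and 0.895% of all transcripts passed.

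Against sleep, which differs from enforced wake with Fxr1 in both state and overexpressed protein, none of the 10 genes passed in limma and 7.79% of all 14617 genes did. This comparison shares the Fxr1 libraries with the second and the sleep libraries with the first. At an unadjusted p under 0.05 there was 1 of the 10 (29.2% of all genes), Adcy5, which was also the 1 gene whose groups did not overlap (32.7% of all genes). Adcy5 had 4.22, 7.56 and 7.71 FPKM with Fxr1 against 10.3, 8.29 and 10.1 FPKM in sleep, a difference of -0.52 (SE 0.19, adjusted p = 0.123). The other 9 differences lay between -0.17 for Adcy3 and 0.070 for Adcy9. Without Fxr1 library 1, 0 of the 10 passed in limma, the difference of Adcy5 was -0.28 (adjusted p = 0.134) and that of Adcy9 0.23 (0.124), and those of Adcy1 (0.10), Adcy2 (0.033), Adcy3 (0.18) and Pde4a (0.080) changed sign. With the GC and length trend removed, Adcy5 was lower (-0.21, SE 0.058, adjusted p = 0.0474) and Adcy9 higher (0.35, SE 0.061, adjusted p = 0.00949) with Fxr1 than in sleep, beside 12.7% of all genes. Of all genes that passed, 468 were higher and 670 lower; with libraries scaled to their median ratio these were 620 and 490, and with the GC trend removed 1026 and 823. Of 29 transcripts, 0 passed in limma, with 1 at an unadjusted p under 0.05 (15.2% of all transcripts), and 0.818% of all transcripts passed.

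The genes fell into sets that varied together over the 9 libraries. Pearson's r of log2(FPKM + 1) was 0.97 for Adcy3 and Pde4a, 0.94 for Adcy1 and Pde4a, 0.93 for Adcy9 and Pde4a, and 0.92 for Adcy1 and Adcy9. Pde4b and Pde4d had an r of 0.75, and Adcy8 and Pde4d one of -0.75. These are descriptions over libraries that share groups, depth and the GC trend above. Among 12609 genes, those most like Adcy9 were Ptchd2, Susd6 and Slc25a42 (r of 0.992, 0.991 and 0.991), and among those most like Adcy5, the gene with the smallest p for Fxr1, were Sncb (0.995) and Dlst (0.994). Ptchd2 stood at 1.31 to 1.75 FPKM in sleep, 3.28 to 4.04 FPKM in enforced wake and 0.761 to 2.71 FPKM with Fxr1. Sncb, which encodes a synuclein, stood at 52.6 to 72.0 FPKM, 71.9 to 82.8 FPKM and 18.7 to 46.6 FPKM, lowest in Fxr1 library 1 like Adcy5.

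The other genes of the pathway were taken from 8 lists with 65 genes, of which 57 were tested. In enforced wake against sleep 13 passed, 7 higher and 6 lower, which is 22.8% beside the 28.3% of all genes. With the GC and length trend removed, 3 pathway genes were higher and 8 lower, and over all genes 2298 higher and 1858 lower became 1532 and 1729. Of the 13, 6 passed in the same direction: Pde2a, Pde1a, Pde1b, Gnai1, Akap7 and Akap11. Pde2a, which cyclic GMP stimulates, rose from 88.2 ± 6.65 to 119.4 ± 6.39 FPKM (SD, n = 3 each; 0.43, SE 0.074, adjusted p = 0.0100; 0.19 with the trend removed). Pde1a and Pde1b, which calcium and calmodulin stimulate, fell by 0.49 (SE 0.098, adjusted p = 0.0156) and 0.18 (SE 0.055, adjusted p = 0.0470), and with the trend removed their differences were -0.32 and -0.44. The other phosphodiesterases that cleave cAMP thus had 1 gene higher and 2 lower of 10 tested.

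Among 7 G protein alpha subunits that act on cyclases, 1 rose and 1 fell. Gnai1, an inhibitory subunit, fell from 127.4 ± 7.94 to 95.5 ± 5.27 FPKM (SD, n = 3 each; -0.41, SE 0.069, adjusted p = 0.00963; -0.23 with the trend removed), and Gnaz, also inhibitory, rose by 0.33 (adjusted p = 0.0449; 0.12 with the trend removed, adjusted p = 0.233). Of 10 anchoring proteins, which hold protein kinase A at its sites of action, 2 fell: Akap7 from 26.8 ± 2.38 to 17.4 ± 1.46 FPKM (-0.60, SE 0.090, adjusted p = 0.00732; -0.36 with the trend removed) and Akap11 from 64.0 ± 5.30 to 50.6 ± 1.34 FPKM (-0.33, SE 0.071, adjusted p = 0.0187; -0.23 with the trend removed). Of 9 protein kinase A subunits and inhibitors, 1 fell, the inhibitor Pkia (-0.38, adjusted p = 0.0424; -0.18 with the trend removed, adjusted p = 0.137). Of 8 CREB factors and coactivators, 3 rose: Crtc1 from 6.33 ± 4.36 to 20.7 ± 2.68 FPKM (1.71, SE 0.36, adjusted p = 0.0176), Crtc3 (0.36, 0.0268) and Ep300 (0.25, 0.0448). With the trend removed their differences were 1.36, 0.036 and 0.11 (adjusted p = 0.0609, 0.731 and 0.262).

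Of the 2 other cyclases tested, Adcy6, the closest relative of Adcy5, rose by 0.49 (SE 0.12, adjusted p = 0.0264; 0.22 with the trend removed, adjusted p = 0.0747), and Adcy7 differed by 0.014 (adjusted p = 0.913). Of 6 other cAMP effectors, 1 rose, the exchange factor Rapgef3 (0.50, adjusted p = 0.0420; 0.21 with the trend removed, adjusted p = 0.162). Of 5 phosphatase regulators downstream of protein kinase A, 0 passed in limma, and 0 had an unadjusted p under 0.05. With all 9 libraries in the fit, 2 of the 13 calls passed, and when 1 library was left out the number of pathway genes called lay between 3 and 11. Pde2a, Gnai1 and Akap7 passed whichever library was left out. Pde1a was lost without enforced wake library 2 or 3 (adjusted p = 0.0540 and 0.0558), Akap11 without sleep library 3 or any wake library (0.0507 to 0.0641), and Pde1b without any library other than sleep library 2 (0.0923 to 0.131). Each of the 7 others was lost, among other cases, without enforced wake library 2 and without library 3 (0.0523 to 0.142).

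**Figure D5:**
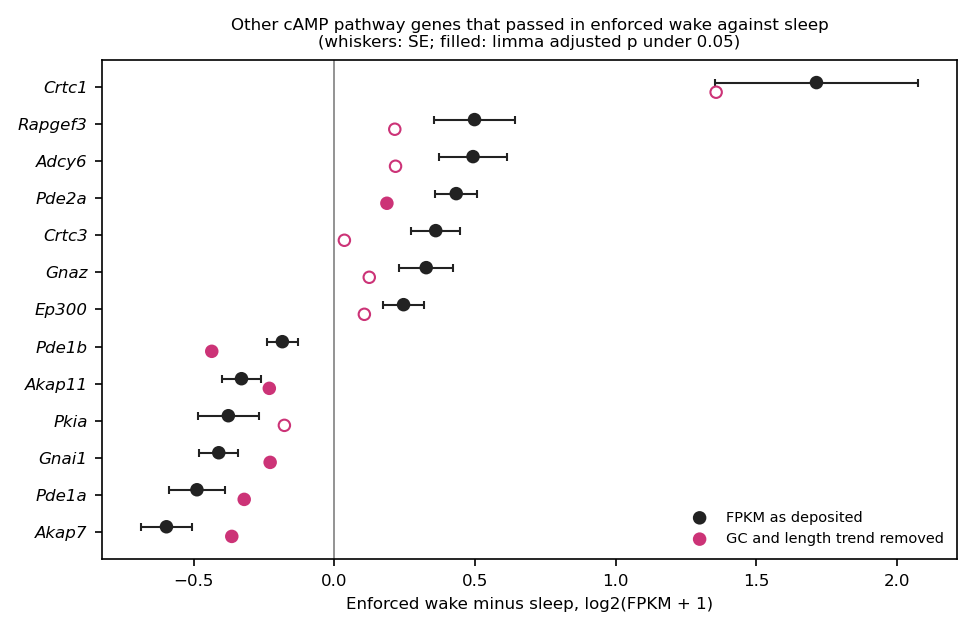
Difference between enforced wake and sleep (log2(FPKM + 1), SE whiskers for FPKM as deposited) of the 13 pathway genes that passed, from FPKM as deposited (black) and after removal of the GC and length trend (magenta); filled points have a limma adjusted p under 0.05. Pde2a to the right and Akap7, Pde1a, Gnai1, Akap11 and Pde1b to the left are filled in both.

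With Fxr1 against enforced wake, 0 of the 57 pathway genes passed in limma, with 21 at an unadjusted p under 0.05, beside 38.3% of all genes. Without Fxr1 library 1, 12 of the 57 passed, beside 22.8% of all genes, and with all 9 libraries in the fit 11, beside 23% of all genes. Against sleep 4 passed, 2 higher and 2 lower, 7.02% beside the 7.79% of all genes, and 3 of them are described. Pde7a, a cAMP-specific phosphodiesterase, was higher at 6.67 ± 0.703 against 4.59 ± 0.339 FPKM (SD, n = 3 each; 0.45, SE 0.093, adjusted p = 0.0275). Pde1b (-0.51, SE 0.13, adjusted p = 0.0495) and Gnas, the stimulatory alpha subunit (-0.47, SE 0.12, adjusted p = 0.0457), were lower. With the trend removed, Pde7a (0.36) and Pde1b (-0.22) passed and Gnas (-0.15) did not. Without Fxr1 library 1 the differences were 0.38 for Pde7a, -0.35 for Pde1b and -0.41 for Gnas. Each of the calls was lost in the fit on the 6 libraries of these groups alone. Pde7a passed when any 1 Fxr1 library was left out, but not without any 1 of the sleep or enforced wake libraries (adjusted p from 0.0509 to 0.106). Pde1b passed only without Fxr1 library 1 or 2 (0.0502 to 0.154 otherwise) and Gnas only without sleep library 2 (0.0600 to 0.153 otherwise).

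Markers of other cells were measured with the genes. The 7 astrocyte markers summed to 178 to 209 FPKM in sleep, 218 to 262 FPKM in enforced wake and 146 to 156 FPKM with Fxr1. Adcy9, Adcy3 and Pde4a were also higher in enforced wake than in sleep, as were 15.7% of all genes tested. Of the 7 astrocyte markers, 1 rose in enforced wake, Gjb6, from 9.83 to 12.3 FPKM in sleep to 22.7 to 27.1 FPKM. The other 6 did not pass: Aqp4 had 13.8 to 16.1 FPKM in sleep and 10.9 to 13.5 FPKM in enforced wake, and the values of Slc1a3 and Gja1 overlapped. With Fxr1 1 was lower than in enforced wake, Gfap, with 9.27 to 13.1 FPKM against 34.1 to 41.2 FPKM. Both are named because their values were seen to pass. The 9 oligodendrocyte markers summed to 97.8 to 151 FPKM, 139 to 161 FPKM and 123.1 to 136 FPKM, and the 6 microglial markers to 11.3 to 18.3 FPKM, 15.8 to 18.9 FPKM and 10.1 to 14.3 FPKM. The 5 excitatory markers summed to 519 to 578 FPKM, 560 to 635 FPKM and 446 to 548 FPKM, and the 6 inhibitory markers to 309 to 373 FPKM, 355 to 391 FPKM and 326 to 338 FPKM. The 9 striatal markers summed to 116 to 118 FPKM, 108.4 to 122.8 FPKM and 96.4 to 118 FPKM, the 4 of oligodendrocyte precursors to 6.12 to 6.71 FPKM, 6.53 to 8.92 FPKM and 5.53 to 7.31 FPKM, and the 6 endothelial and mural markers to 14.95 to 18.5 FPKM, 13.6 to 14.9 FPKM and 12.5 to 15.8 FPKM. In enforced wake against sleep, markers of other lists passed too: 2 higher and 2 lower of 5 neuronal, 1 lower of 5 excitatory, 2 higher of 6 inhibitory, 1 lower of 7 striatal, 1 higher and 2 lower of 9 oligodendrocyte, 1 higher of 6 microglial and 1 lower of 6 endothelial and mural markers. With Fxr1 against enforced wake, Gfap was the 1 marker that passed. No marker was at 0 in all 9 libraries. The part of these cells in the differences above was not tested.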

How the data were processed

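Per the file headers, 2 deposited tables hold FPKM for each transcript and library beside the authors' own fold ratio, p-value and q-value. The submitters' processing notes name StringTie 1.3.4d, HISAT2 2.1.0 and SAMtools 1.9 and the build GRCm38, and no tool for the fold, p-value or q-value. Set against the FPKM columns, the authors' fold had sleep on top in the table of sleep and wake, and Fxr1 on top in the other. Both tables hold the same enforced wake values. FPKM are relative to the total of a library, and no count model was used. Depth was read from the step that 1 fragment makes in single-transcript genes, and it limits the precision of low genes.

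FPKM were summed by gene symbol and tested as log2(FPKM + 1), which understates changes of low genes, with limma 3.58.1 in R 4.3.3 (lmFit, eBayes with trend). The first 2 comparisons were fitted on their own 6 libraries and the third on all 9. For the GC and length correction, deviations of each library from the mean of all were fitted on splines (5 degrees of freedom each) of GC content and log length over genes with at least 1 FPKM, and subtracted. A gene was given the GC content and length of its longest annotated transcript. The test was run on simulated data with independent noise for each gene. These held no GC trend and no outlying library, so they cannot show how the test behaves with either. Alternatives were other pseudocounts, filters, scaling, this correction, a replicate block, other libraries in the fit and each library left out. Gene models and lengths came from GENCODE M21, and promoters from RefSeq on GRCm38.p6. The 10 genes, the pathway lists and the marker lists were chosen with earlier results of these data known. All 10 genes were named, with transcripts of at least 10% of a gene, up to 3 genes of smallest p per pathway list, and the 3 genes most correlated with the gene of smallest p; a few genes that the rule names are not reported here. Alternatives for the pathway lists were added after the data were seen.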

Additional observations from a re-analysis of the deposited data

How the results depend on the processing

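Other pseudocounts, scaling to the median ratio and a minimum of 2 FPKM changed no call of the 10 genes, and among these settings only scaling turned a sign, for Adcy1 (0.019) and Adcy2 (0.022) with Fxr1 against sleep. The labels do not say whether same-numbered libraries belong together, and 3 libraries per group are too few to decide it. Correlations of same-numbered deviations were -0.061, -0.0081 and 0.062 for enforced wake and sleep and 0.070, -0.069 and 0.17 for Fxr1 and enforced wake. They were -0.24, -0.25 and 0.091 for Fxr1 and sleep. In no comparison did each library correlate best with its own number. With the replicate block the genes called stayed at 4, 0 and 0 in the 3 comparisons. The cause of the changes below was not tested.

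For enforced wake against sleep, the number of the 10 genes called, 4, became 1 with the GC and length correction and 1 with the replicate block and that correction. In both, the gene was Adcy5, which was not among the 4. With all 9 libraries in the fit the number was 1, Pde4b. Signs turned with the correction, with or without the block, for Adcy1 (-0.014) and Adcy5 (-0.32). All genes called, 4156, became 2000 with the block and correction and 1398 with all 9 libraries. The number of pathway genes called, 13, became 6 without the filter, 8 with the block and correction, and 2 with all 9 libraries. Of the 13, only Akap7, Akap11, Gnai1 and Pde1b passed with the block and correction. The 1 transcript of these genes became 0 without the filter, 2 at a minimum of 2 FPKM, 0 with the block, 0 with the block and correction, and 0 with all 9 libraries. This count stayed at 1 with the correction alone. All transcripts called, 1055, became 346, 11, 2 and 440 without the filter, with the block, with the block and correction, and with all 9 libraries.

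For Fxr1 against enforced wake, the 0 calls became 2 with all 9 libraries in the fit and the 0 pathway genes 11. With the correction, with or without the block, Adcy1 (0.025), Adcy5 (0.11), Adcy9 (0.21) and Pde4a (0.0097) turned positive. All genes called, 60, became 29 and 36 with pseudocounts of 0.1 and 0.5, 4 without the filter, 34 at 2 FPKM, 1 with the block, 1 with the block and correction, and 3366 with all 9 libraries. All transcripts, 258, became 158, 153, 0 and 1 without the filter, at 2 FPKM, with the block, and with the block and correction.

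For Fxr1 against sleep, the 0 calls became 2 with the correction and 1 with the block and correction; Adcy1 (0.012), Adcy2 (0.099), Adcy3 (0.085) and Pde4a (0.14) turned positive in both. All genes called, 1138, became 1849 with the correction, 372 with the block and 183 on the 6 libraries alone. The number of pathway genes called, 4, became 2 without the filter, 0 with the block, 2 with the block and correction, and 0 on the 6 libraries. All transcripts, 237, became 147, 630, 12, 127 and 70 without the filter, with the correction, with the block, with the block and correction, and on the 6 libraries.

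When 1 library was left out, the genes called among the 10 were 2 to 4 for enforced wake against sleep, 0 to 4 for Fxr1 against enforced wake and 0 for Fxr1 against sleep. In the same order, all genes called were 1822 to 3631, 2 to 3316 and 248 to 1440, pathway genes 3 to 11, 0 to 12 and 0 to 3, and all transcripts 256 to 611, 167 to 787 and 96 to 328. Transcripts of the 10 genes were 0 to 2 in the first and 0 to 2 in the second. Differences that changed sign had these ranges: Pde10a -0.064 to 0.31 and Adcy3-201 -0.020 to 1.65 in the first, Adcy2 -0.028 to 0.092 in the second, and in the third Pde10a -0.25 to 0.12, Pde4d -0.0096 to 0.026, Adcy1 -0.14 to 0.10, Adcy2 -0.078 to 0.033, Adcy3 -0.36 to 0.18, Pde4a -0.27 to 0.080 and Adcy9 -0.062 to 0.23.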
